A study of Mus musculus with 154 samples.

Results

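The (B6.A4 X B6.A6)F1 mice carried A/J-derived chromosomes 4 and 6 together, each in the heterozygous state on the C57BL/6J (B6) background. All mice with this strain label were taken, which gave 5 of the 41 mice compared here and 1 of the 24 strains of the series. They were compared with both single chromosome substitution strains (CSSs), (B6.A4 X B6)F1 (n = 8) and (B6 X B6.A6)F1 (n = 8), and with the control strain B6 (n = 20). Strain names give the sire first, so chromosome 4 of A/J always came from the father and chromosome 6 of A/J from the mother. All of these mice were males of 5 weeks of age, and their livers were collected after an overnight fast. Each CSS replaces a whole chromosome, and the offspring of each cross came from several breeding cages. The labels do not name litters, so the p-values measure the spread between mice. That spread was estimated in 1 fit over the mice of all 24 strains, and not over the 41 mice alone. The F1 design measures only effects that a single A/J copy can produce, and it cannot tell which of the many variants on a chromosome acts.

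In an additive model, the effect of both substitutions together equals the sum of the effects of each substitution alone. A departure from that sum is called epistasis, and for a transcript it is an interaction expression QTL (ieQTL). A gene on a substituted chromosome can be altered by a variant beside it (in cis), and a gene elsewhere only in trans. The liver of a fasted mouse makes glucose and ketone bodies, and chromosome 4 holds the cluster of major urinary protein (Mup) genes, which encode small secreted carriers of odorants.

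Gene-level counts of stranded total RNA libraries were measured for 13289 genes. The totals lay between 12056310 and 18055173 counts (median 13609905) in the double CSS, and between 6752637 and 25630807 in the other 36 mice of the comparison. Hepatocyte markers were abundant in every mouse, with a summed level of 114200 to 136300 CPM (counts scaled to a common library size) for 10 markers in the double CSS and 104900 to 162900 CPM in B6. The summed level of 4 Y-linked genes was 245 to 307.5 CPM in the double CSS and 257 to 314.7 CPM in B6. In these bulk samples, fewer cells of a type and less RNA per cell cannot be told apart.

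Genes on the substituted chromosomes were examined first, as a check of the labels. Cyp4a32, a fatty acid omega-hydroxylase gene on chromosome 4, measured 139, 204, 147, 173 and 212 CPM in the 5 double CSS mice. It lay between 168 and 255 CPM (median 190) in (B6.A4 X B6)F1, between 14.1 and 56.6 CPM (median 36.1) in B6 and between 16.7 and 24.6 CPM (median 21.4) in (B6 X B6.A6)F1. All 5 double CSS mice were above every B6 mouse and every (B6 X B6.A6)F1 mouse. Mup5 measured 14.4, 19.9, 23.1, 3.61 and 32.5 CPM in the double CSS, 12.8 to 40.6 CPM in (B6.A4 X B6)F1 and 0.131 to 3.41 CPM in B6. Each of the 5 mice was again above every B6 mouse, although mouse 4 was close to the highest of them. Mup9 and Mup12 were likewise higher with chromosome 4, and these genes have close relatives in the cluster, so that reads can be divided between copies and their single levels are uncertain.

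The chromosome 6 genes also followed the labels. Mug2, a murinoglobulin gene, measured 181.3, 231.1, 187.9, 142.7 and 172.8 CPM in the double CSS, 127.6 to 187.8 CPM (median 162.99) in (B6 X B6.A6)F1 and 239 to 707.6 CPM (median 366.8) in B6. All 5 double CSS mice were below the lowest B6 mouse. Hist4h4, a histone H4 gene, measured 6.756, 6.024, 6.266, 6.772 and 5.864 CPM in the double CSS, 5.507 to 10.28 CPM in (B6 X B6.A6)F1 and 1.2 to 6.534 CPM in B6. The double CSS was in the upper part of the B6 range or above it. Dysf was lower with chromosome 6 and Pik3c2g higher.

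**Figure D1:**
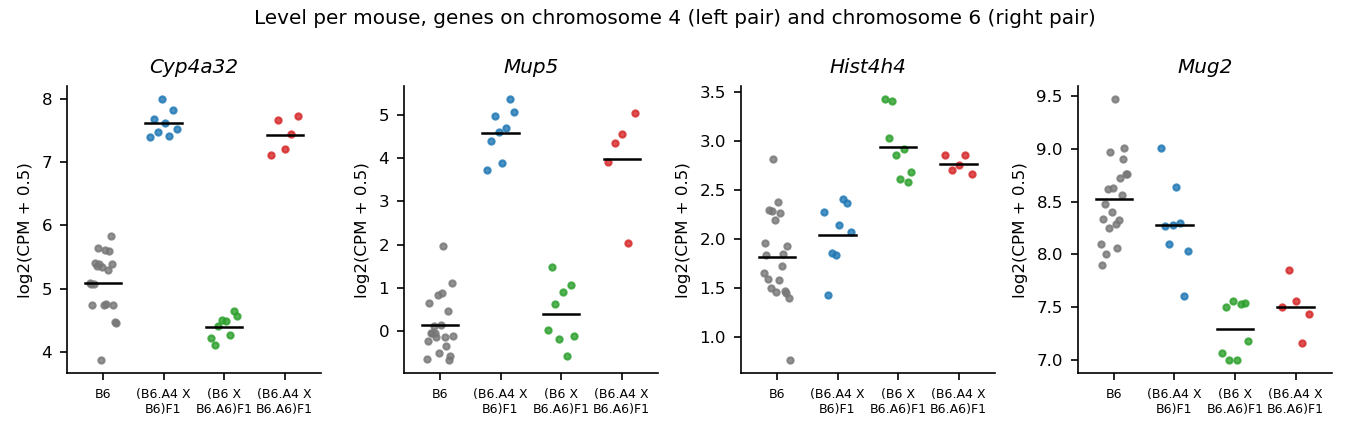
Each point is 1 mouse of 1 of the 4 strains, the vertical axis is log2(CPM + 0.5), and the bar is the mean. Cyp4a32 and Mup5 on chromosome 4 were high in (B6.A4 X B6)F1 and the double CSS, and on chromosome 6 Hist4h4 was high and Mug2 low in (B6 X B6.A6)F1 and the double CSS.

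The double CSS was then tested against the sum of both single effects. The log2 interaction is the log2 level of the double CSS minus that of each single CSS plus that of B6, and it was tested with edgeR's quasi-likelihood test at a Benjamini-Hochberg FDR under 0.05. A total of 72 genes had an ieQTL, of which 31 (0.233% of all genes) were higher and 41 (0.309%) lower than the sum. Among the 1518 measured genes of the substituted chromosomes 16 (1.05%) were called, and among the 11771 others 56 (0.476%). Of the 16, chromosome 6 held 11 among 712 measured genes and chromosome 4 held 5 among 806. The FDR was computed for each set separately, so these shares rest on different p cutoffs. Absolute interactions ranged from 0.27 to 1.54 on the log2 scale, with a median of 0.47. The largest was that of Gm26814, which had only 1 to 22 counts in B6 mice and 5 to 18 in the double CSS. It was called in 8 of 15 alternative analyses. An unadjusted p under 0.05 was found for 2008 genes (15.1%). The share was 15.5% on the substituted chromosomes and 15.1% elsewhere.

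This count rested on the model and on single mice. With 10 surrogate variables in place of 5 no gene was called by edgeR, while 954 genes had an unadjusted p under 0.05. DESeq2's Wald test called 0.88% of the genes, and 71 of the 72 were among them. The overlap was smaller in some other fits. With 0 surrogate variables 61 genes were called, 37 of them among the 72. With the 4 strains alone and 5 surrogate variables 48 were called, 19 of them among the 72. The filters of 15 counts in every mouse and in 75% of mice, which tested fewer genes, called 39 and 65 of the 72. The overlap was 62 with DESeq2's size factors, 64 with legacy=FALSE and 65 with surrogate variables from the counts as deposited. Without mouse 2 of the double CSS 22 genes were called, without mouse 4 there were 43, and without mouse 5 there were 222. Of the 35 ieQTLs named below, 9 (A1cf, Cnot6l, Gm44250, Ino80d, Kdm7a, Nfib, Usp34, Zbtb20 and Zfp871) were called in 16 of 17 alternative analyses, the exception being that with 10 surrogate variables. In the 5 analyses that each left out 1 double CSS mouse, 18 of the 35 were called every time, 5 in 4, 9 in 3, and Daxx, Stk38l and Pex26 in 2. Pon3 and Pex26 were called in 7 of the 17 alternatives, the fewest of the named genes.

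For the genes below the sum, both single CSSs were mostly above B6 and the double CSS was near B6 (positions are in mm10). Choosing genes for a low interaction favours this arrangement, so it is given only as a description. Usp34 (chr11:23306895-23490560), which encodes a deubiquitinating enzyme, measured 98.79, 96.01, 121, 119.4 and 116.5 CPM in the double CSS. It measured 121 to 148.5 CPM (median 130.9) in (B6.A4 X B6)F1, 102.3 to 139.5 CPM (median 118.2) in (B6 X B6.A6)F1 and 89.51 to 121 CPM (median 95.88) in B6. The sum of the single effects corresponded to 159 CPM, and all 5 mice were below it (log2 interaction -0.49 ± 0.08 (SE), FDR = 0.000334). Expected CPM values here and below come from the group CPM without surrogate variables. They can therefore differ from the sum in the fit that gave the log2 interaction. A1cf (chr19:31868764-31948995), the RNA-binding partner of the enzyme that edits apolipoprotein B mRNA, measured 106, 80.5, 92.8, 107 and 91.4 CPM in the double CSS. The medians were 126.7 CPM in (B6.A4 X B6)F1, 118.2 CPM in (B6 X B6.A6)F1 and 100.5 CPM in B6. All 5 mice were below the sum of the single effects and lay within the B6 range of 75.1 to 130 CPM (log2 interaction -0.66 ± 0.12, FDR = 0.00122).

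Zbtb20 (chr16:42875881-43642602), a transcriptional repressor of the alpha-fetoprotein gene in liver, measured 164, 156, 179, 196 and 149 CPM in the double CSS. Its median was 220 CPM in (B6.A4 X B6)F1, 194 CPM in (B6 X B6.A6)F1 and 144 CPM in B6, and the sum corresponded to 283 CPM. All 5 mice lay within the B6 range of 111 to 204 CPM (log2 interaction -0.64 ± 0.14, FDR = 0.007). Similar patterns were found for Cnot6l, a deadenylase (-0.55), and Itgav, the integrin alpha V chain (-0.43). Ino80d, a subunit of a chromatin remodelling complex (-0.37), and Arfgef1, an exchange factor of vesicle transport (-0.37), were also below the sum. With chromosome 6 alone they measured 0.068 and 0.073 against B6 and were not called (edgeR FDR = 0.388 and 0.376). Lmbrd2 (-0.61), Zfp871 (-0.48) and the annotated transcript Gm26905 (-0.51) completed the 12 genes with the smallest p in this direction, together with Kdm7a and Gm44250 on chromosome 6. Kdm7a, a histone demethylase, measured 40.9, 40.8, 46.0, 51.3 and 46.9 CPM in the double CSS against 44.8 to 65.5 CPM in B6, so that 2 mice were below every B6 mouse.

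The genes above the sum showed the opposite arrangement, which their selection favours as well. Zbtb7b (chr3:89377644-89394776), a transcription factor gene, measured 52.6, 53.0, 48.0, 56.0 and 49.3 CPM in the double CSS. The medians were 37.2 CPM in (B6.A4 X B6)F1, 43.8 CPM in (B6 X B6.A6)F1 and 46.4 CPM in B6, and the sum corresponded to 34.7 CPM. All 5 mice were above the B6 median and within the B6 range of 33.2 to 59.96 CPM (log2 interaction 0.49 ± 0.10, FDR = 0.00545). Ticam1 (chr17:56269319-56276786), an adaptor of toll-like receptor signaling, measured 10.6, 9.37, 8.19, 10.8 and 7.33 CPM in the double CSS, with medians of 7.15 CPM in (B6.A4 X B6)F1, 9.02 CPM in (B6 X B6.A6)F1 and 11.3 CPM in B6. All 5 mice were below the B6 median but above the expected 5.56 CPM (log2 interaction 0.79 ± 0.17, FDR = 0.00847).

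Agxt (chr1:93135240-93145421), which detoxifies glyoxylate in hepatocyte peroxisomes, measured 217.8, 292.9, 217.6, 205.8 and 180.7 CPM in the double CSS. Its median was 163.5 CPM in (B6.A4 X B6)F1, 192.4 CPM in (B6 X B6.A6)F1 and 222.4 CPM in B6, and all 5 mice were above the expected 140.95 CPM (log2 interaction 0.61 ± 0.16, FDR = 0.0406). The call was kept in 3 of the 5 analyses that left out 1 double CSS mouse. The other genes above the sum included Mgat1, an enzyme of N-glycan processing (0.40), Supt5, a transcription elongation factor (0.42), Supt7l, a subunit of a histone acetyltransferase complex (0.64), and Mmp14, a membrane-bound metalloproteinase (0.69). Poldip3 (0.39), Pnn (0.43), Daxx, a histone chaperone gene (0.50), Ccdc134 (0.93), Rab11fip4 (0.61) and Rbm10, a splicing factor gene (0.55), made up the rest of the 12 with the smallest p.

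**Figure D2:**
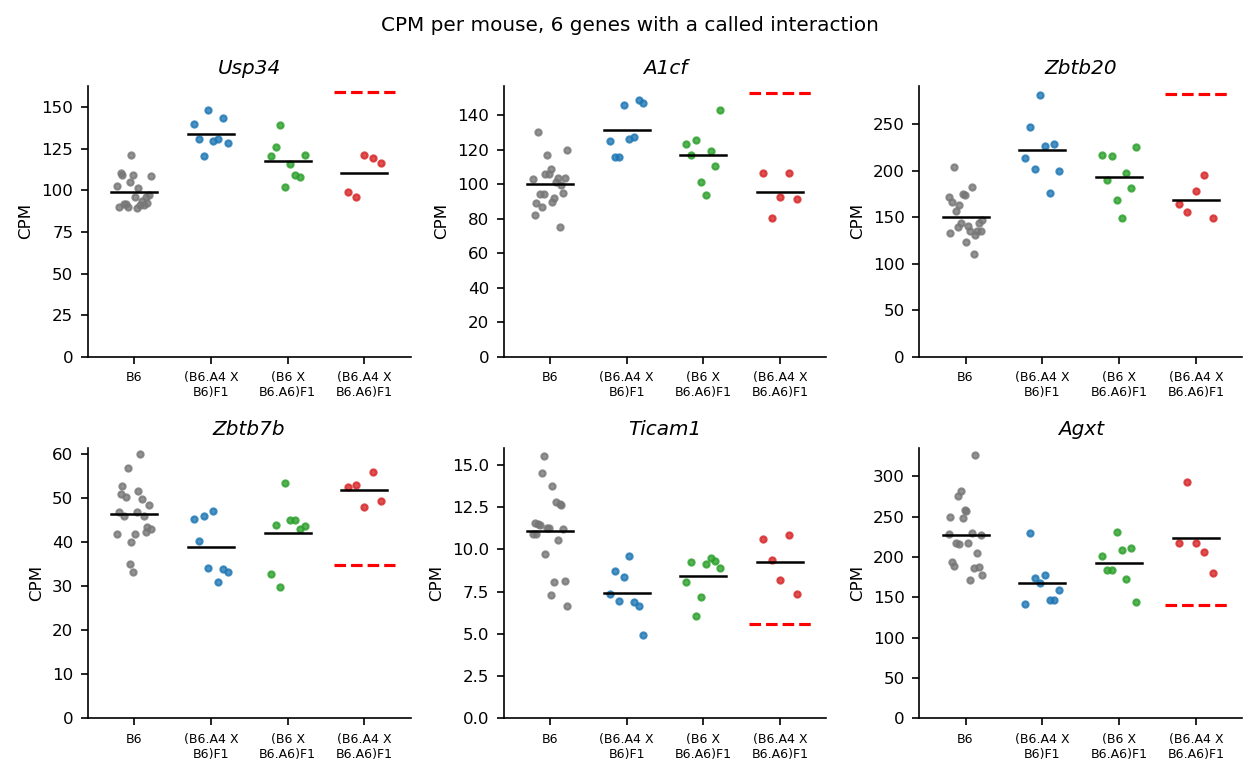
Each point is the CPM of 1 mouse in 1 of the 4 strains, the bar is the mean, and the red dashed line is the CPM expected in the double CSS if log2 effects add. The line was computed from CPM without the surrogate variables of the fit. The 5 double CSS mice lay below the line for Usp34, A1cf and Zbtb20 and above it for Zbtb7b, Ticam1 and Agxt.

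Of the called genes on the substituted chromosomes, the 12 with the smallest p included 9 on chromosome 6 and 3 on chromosome 4. Itpr2, an inositol trisphosphate receptor of hepatocytes, measured 55.5, 59.0, 56.7, 49.0 and 50.9 CPM in the double CSS against medians of 60.6 and 60.7 CPM in the single CSSs with chromosome 4 and 6 and 56.0 CPM in B6 (-0.39). Nfib, a transcription factor gene on chromosome 4, measured between 114.6 and 140.6 CPM in the double CSS against medians of 140.9 CPM in (B6.A4 X B6)F1, 141.25 CPM in (B6 X B6.A6)F1 and 112.8 CPM in B6 (-0.37). The groups overlapped for both genes. Tmem72 (-0.40), Stk38l, a protein kinase (-0.53), Tut4, a terminal uridylyltransferase (-0.46), Pon3, a paraoxonase (-0.35), and Gm26814 (-1.54, from low counts) were below the sum. Rgp1 (0.40), Gcc1, a Golgi protein (0.51), and Pex26, a peroxisome assembly factor (0.69), were above it.

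Over the 31 genes above the sum, the single effect of chromosome 4 had a median of -0.29 and that of chromosome 6 a median of -0.19, while the double CSS differed from B6 by a median of -0.03. Over the 41 genes below the sum, these medians were 0.26, 0.16 and 0.01. The double CSS itself differed from B6 at FDR < 0.05 for 1 of the 31 genes and 4 of the 41. The same 20 B6 mice enter every one of these differences and the selection used the single CSSs, so these directions are partly set by the selection and nothing is read from them.

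**Figure D3:**
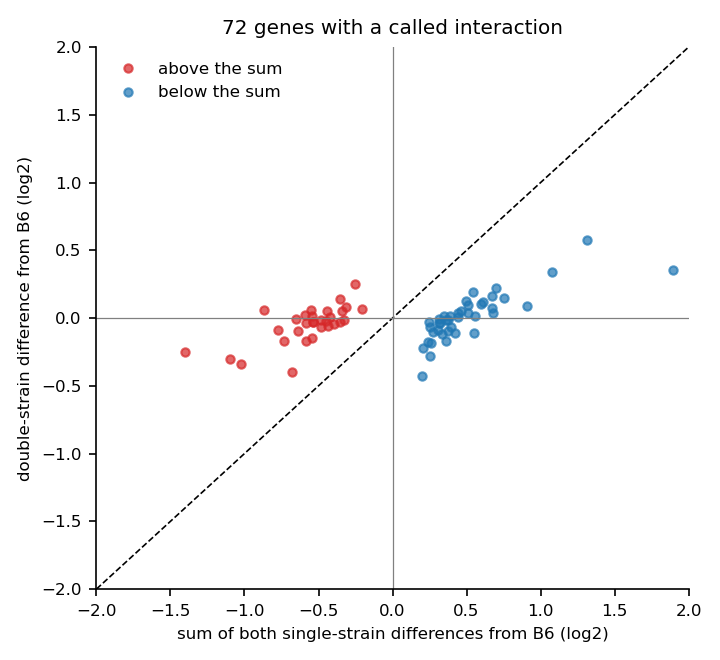
Each point is 1 of the 72 genes, the horizontal axis is the sum of both single differences from B6 and the vertical axis the difference of the double CSS from B6, both in log2, and the dashed line marks equality. The points lay near 0 on the vertical axis, and both axes share the B6 mice.

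Transcript composition and library composition moved with these calls. The longest transcript had a median GC content of 42.7% and a median length of 8099 bases over the 41 genes below the sum, against 54.2% and 3536 bases over the 31 genes above it and 48.8% and 3295 bases over all annotated genes. GC content was above the median of all genes for 3 of the 41 and 25 of the 31. A GC index of each library, the mean log2 level of genes with over 56.7% GC minus that of genes with under 40.8%, had medians of -0.64 in B6, -0.77 in (B6.A4 X B6)F1, -0.78 in (B6 X B6.A6)F1 and -0.67 in the double CSS. The ranges of the 4 groups overlapped. The part of this composition in the interaction calls was not tested.

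The next comparison was whether the effect of a chromosome seen alone was also seen beside the other chromosome. Chromosome 4 alone was measured as (B6.A4 X B6)F1 against B6, and chromosome 4 beside chromosome 6 as the double CSS against (B6 X B6.A6)F1, and these share no mice. Chromosome 4 alone altered 1791 genes (13.5%) and chromosome 6 alone 1075 genes (8.09%), whereas 49 genes (0.369%) were called for chromosome 4 beside chromosome 6 and 83 genes (0.625%) for chromosome 6 beside chromosome 4. The comparisons beside the other chromosome had 5 against 8 mice and those alone 8 against 20, so these counts differ in precision. The size of that part was not tested.

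Of 211 genes on chromosome 4 called with chromosome 4 alone, 60 (28.4%, 95% Wilson interval 22.8 to 34.9, counting error only) had the same sign and an unadjusted p under 0.05 beside chromosome 6. Over all chromosome 4 genes, an unadjusted p under 0.05 was found for 8.44% in the higher and 7.44% in the lower direction. Of 1580 genes elsewhere, 87 (5.51%, interval 4.49 to 6.74) were carried over, beside 3.96% of all such genes higher and 3.35% lower. On chromosome 4 the median size was 0.298 alone and 0.105 in the same direction beside chromosome 6, and elsewhere it was 0.296 and 0.018. These genes were chosen for a small FDR alone, and that selection favours a smaller size in a second comparison. In reverse, of 46 chromosome 4 genes called beside chromosome 6, 36 (78.3%) had the same sign and an unadjusted p under 0.05 alone. Over all chromosome 4 genes, 21.5% were higher and 16.3% lower at that threshold alone. Genes are not independent, so these intervals are too narrow.

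Chromosome 6 gave a similar share for genes on the chromosome itself and a higher share for genes elsewhere. Of 99 genes on chromosome 6 called alone, 32 (32.3%, interval 23.9 to 42.0) were carried over beside chromosome 4, beside 7.44% of all chromosome 6 genes higher and 10.3% lower at an unadjusted p under 0.05. Of 976 genes elsewhere, 98 (interval 8.31% to 12.1%) were carried over, beside 6.23% of all such genes higher and 6.15% lower. In reverse, 20 of 46 chromosome 6 genes called beside chromosome 4 (43.5%) passed alone, beside 14.6% of all chromosome 6 genes higher and 13.1% lower. Of 37 genes elsewhere 16 (43.2%) passed alone, beside 11.8% of all such genes higher and 11.9% lower.

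**Figure D4:**
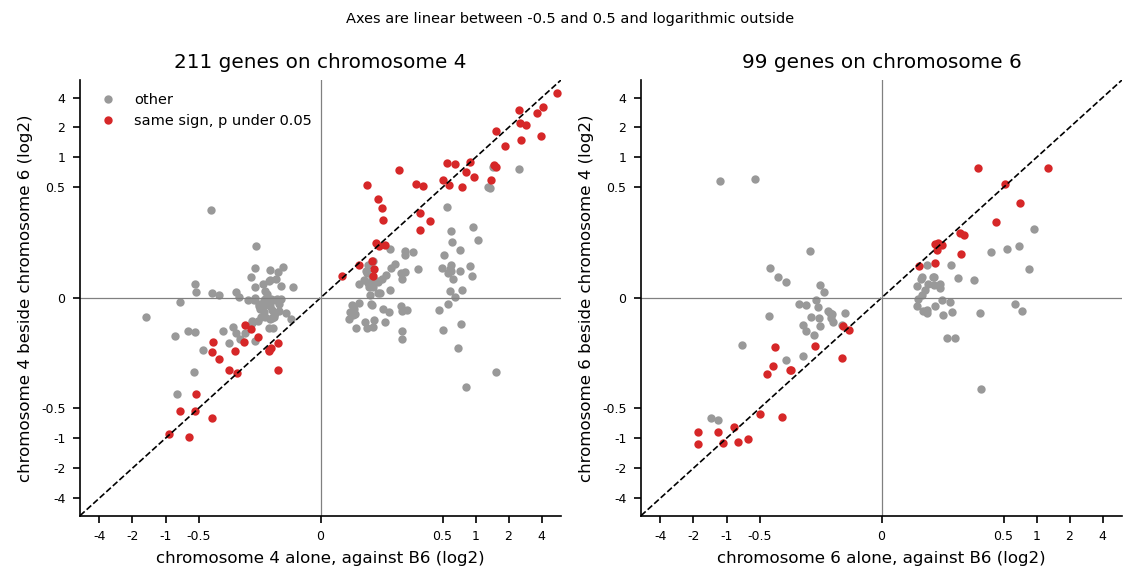
Each point is a gene on chromosome 4 (left) or 6 (right) called with that chromosome alone, the horizontal axis is the log2 effect alone and the vertical axis the log2 effect beside the other chromosome, and the dashed line marks equality. Red points are the 60 and 32 genes with the same sign and p < 0.05.

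Several of the genes that served as the check above, chosen for a small p with 1 chromosome alone, were seen in both settings. Cyp4a32 rose by 2.51 with chromosome 4 alone and by 2.97 beside chromosome 6, and Mup5 rose by 5.47 and 4.46. Mug2 fell by 1.19 with chromosome 6 alone and fell by 0.86 beside chromosome 4, and Dysf fell by 0.855 and 0.765. None of these 4 genes had a called interaction. Other large single effects were smaller beside the other chromosome. Mup18 measured 2.48 with chromosome 4 alone and 0.77 beside chromosome 6 (edgeR unadjusted p = 0.162), and Atp6v0d2, a subunit of the vacuolar proton pump, -1.50 and -0.09 (p = 0.831). Slc41a3 measured -1.39 with chromosome 6 alone and -0.63 beside chromosome 4 (p = 0.0539). Mup18, Atp6v0d2 and Slc41a3 had no called interaction either, so a difference between the 2 settings is not established for them. Kdm7a was called beside chromosome 4 (-0.38 ± 0.07, FDR = 6.93e-05) and measured 0.06 with chromosome 6 alone (FDR = 0.434), with a log2 interaction of -0.44. Of the genes off chromosome 4 only Rprl3, Enpp6 and Cnpy3 were called beside chromosome 6, and all 3 had the same sign and p < 0.05 alone. These 3, Mup18 and Atp6v0d2 were named here after their values were seen.

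Against B6, the double CSS differed in 640 genes, or 4.82% of all genes, with 2.78% higher and 2.04% lower. On the substituted chromosomes 12.4% of the genes were called, against 3.84% elsewhere. The FDR was again computed for each set separately, and an unadjusted p under 0.05 was found for 23.8% and 18.2%. The share of all genes called was 2.81% without mouse 2 of the double CSS and 0.971% with the 4 strains alone and no surrogate variables. The largest increases were in Rprl3, Mup5 (4.96), Mup9 (3.66), Mup12 (3.27), Mup17 (3.10) and Cyp4a32 (2.41). Rprl3, an RNase P RNA-like gene annotated on chromosome 8, measured 65.7, 48.6, 54.8, 50.1 and 66.7 CPM in the double CSS, 55.9 to 98.4 CPM in (B6.A4 X B6)F1, 0 to 0.461 CPM in B6 and 0 to 0.597 CPM in (B6 X B6.A6)F1. The B6 mice had at most 9 counts each, so the fitted log2 difference of 8.67 depends on how low counts are handled. Over all strains, the 8 strains with chromosome 4 or 14 of A/J had 29.5 to 134 CPM and the other 16 strains at most 2.76 CPM. RNase P RNA has near-identical copies, and the place of origin of these reads is uncertain.

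Among the Mup genes, Mup9 measured 24.4, 32.3, 13.5, 84.3 and 70.3 CPM in the double CSS, 11.7 to 159 CPM (median 29.7) in (B6.A4 X B6)F1 and 0.939 to 9.51 CPM (median 2.85) in B6. Every double CSS mouse was above every B6 mouse, and they differed among themselves by more than the whole B6 range. Hsd3b7, an enzyme of bile acid synthesis on chromosome 7, measured 354.9, 342.6, 329.4, 318.3 and 345.4 CPM in the double CSS, 214 to 319 CPM (median 287) in (B6.A4 X B6)F1, 209 to 371 CPM (median 302) in (B6 X B6.A6)F1 and 172 to 312 CPM (median 259) in B6. Again each of the 5 exceeded every B6 mouse (log2 difference 0.45 ± 0.08, FDR = 8.68e-05), and it was the called gene of 19 measured in the bile acid list. Its interaction was -0.02 (FDR = 0.956). Slc41a3, a magnesium transporter on chromosome 6, measured 2.801, 2.157, 2.999, 3.311 and 2.345 CPM in the double CSS against 2.64 to 16.5 CPM (median 9.31) in B6. It measured 3.49 to 5.74 CPM (median 4.36) in (B6.A4 X B6)F1 and 1.55 to 4.09 CPM (median 2.75) in (B6 X B6.A6)F1, so that all 5 double CSS mice were below every (B6.A4 X B6)F1 mouse.

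Ppargc1a, Lpin1 and Igfbp1, from 3 different lists, were lower than in B6. Ppargc1a, a coactivator of the gluconeogenic program, measured 18.13, 16.36, 18.58, 22.5 and 24.51 CPM in the double CSS, 14.07 to 74.44 CPM (median 41.17) in B6, 22.48 to 63.91 CPM (median 43.26) in (B6.A4 X B6)F1 and 17.03 to 35.21 CPM (median 27.04) in (B6 X B6.A6)F1. All 5 mice were below the B6 median, and the B6 range enclosed them (log2 difference -1.14 ± 0.24, FDR = 0.00142). Lpin1, which makes diacylglycerol and acts as a coactivator, measured 69.6, 75.5, 75.3, 169 and 94.8 CPM against 64.6 to 547 CPM (median 306) in B6 (-1.74 ± 0.40, FDR = 0.00373). Igfbp1, an insulin-repressed binding protein of insulin-like growth factors, measured 69.79, 65.52, 85.52, 55.08 and 133.3 CPM against 56.03 to 693.8 CPM (median 229.4) in B6 (-1.69 ± 0.43, FDR = 0.0115). For both genes all 5 mice were below the B6 median. The (B6 X B6.A6)F1 mice were also low, with medians of 151.6 CPM for Lpin1 and 98.0 CPM for Igfbp1. In (B6.A4 X B6)F1 the medians were 177.7 and 305.8 CPM. B6 mice spread widely for these genes, and none had a called interaction.

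Tff3 (-1.98), Cidec, a lipid droplet protein on chromosome 6 (-1.60), Slc41a3 on chromosome 6 (-1.50) and Phf11c (-1.47) were the other large decreases. Tat, which starts tyrosine breakdown (-0.72), and Asns, the asparagine synthetase gene on chromosome 6 (-1.11), were also lower. These decreases were not particular to the double CSS. In (B6 X B6.A6)F1 and B6 the medians were 8.23 and 18.6 CPM for Tff3, and 2.76 and 7.76 CPM for Cidec. They were 8.75 and 11.4 CPM for Phf11c, 1711 and 2750 CPM for Tat, and 3.61 and 15.7 CPM for Asns. In the gluconeogenesis list 2 of 20 measured genes (Ppargc1a and Tat) were called lower and 0 higher, beside 2.04% of all genes called lower, and the list's median difference was -0.159 against 0.005 over all genes. Lpin1 was the called gene of 19 in the fatty acid synthesis list and Igfbp1 that of 21 in the list of insulin and glucagon signaling. The list of fatty acid oxidation and ketogenesis, with 30 genes, had 1 called higher (Cyp4a32) and 1 lower (Cidec).

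Interferon-response genes were higher in the double CSS than in B6. Of the 30 listed and measured genes, 12 were called higher and 0 lower, beside 2.78% of all genes called higher, and the list had a median difference of 0.354 against 0.005 over all genes. The called genes included the transcription factors Irf7 (0.51) and Irf9 (0.34), the antiviral effectors Ifit2 (0.47), Ifi44 (0.62), Bst2 (0.40) and Rtp4 (0.49), and Ifi27 (0.58). The immunity-related GTPases Igtp (0.53) and Irgm1 (0.45), the immunoproteasome subunit Psmb9 (0.61) and the viral RNA sensor Ddx58 on chromosome 4 (0.27) were also called. Ifi44 measured 5.77, 6.47, 4.71, 5.12 and 3.28 CPM in the double CSS, 1.55 to 5.04 CPM (median 3.20) in B6, 1.99 to 4.02 CPM in (B6.A4 X B6)F1 and 3.48 to 5.10 CPM in (B6 X B6.A6)F1. Irgm1 measured 54.05, 65.1, 50.98, 59.82 and 42.34 CPM against 23.3 to 54.02 CPM (median 37.94) in B6. It lay between 40.3 and 58.5 CPM (median 48.9) in (B6 X B6.A6)F1. For each gene 3 double CSS mice were above every B6 mouse, and mouse 5 was the lowest of the 5.

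No interferon gene had a called interaction, with 8 of the 30 at an unadjusted p under 0.05 beside 15.1% of all genes. The list's median single effect was -0.07 for chromosome 4 and 0.16 for chromosome 6. Without mouse 2 of the double CSS 5 genes of the list were called higher against B6, without mouse 1 there were 6, and with the 4 strains alone and no surrogate variables there were 0. Of the Kupffer cell markers Clec4f on chromosome 6 was higher (0.41) and Marco lower (-0.997), and the summed level of 10 markers was 421.9 to 565.7 CPM in the double CSS and 403.4 to 656 CPM in B6. The 4 measured lymphocyte markers summed to 3.11 to 5.77 CPM and to 3.23 to 7.69 CPM.

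Some immunoglobulin transcripts, made by B cells and plasma cells, were also higher in the double CSS. Of 5 measured, the kappa constant gene Igkc on chromosome 6 (1.03 ± 0.26, FDR = 0.00252), the alpha heavy chain gene Igha (2.10 ± 0.58, FDR = 0.0212) and the joining chain gene Jchain (1.99 ± 0.37, FDR = 0.000334) were called higher against B6, and Ighm (-0.26) and Ighd (0.24) were not called. The same 3 genes were called higher against (B6.A4 X B6)F1, with differences of 1.76, 3.32 and 1.81, as were the interferon genes Ifi44 (0.84), Irgm1 (0.51), Igtp (0.72) and Irgm2 (0.60). Igkc measured 6.67, 7.66, 3.11, 1.43 and 1.29 CPM in the double CSS, 0.73 to 2.38 CPM in (B6.A4 X B6)F1, 1.08 to 5.40 CPM in (B6 X B6.A6)F1 and 1.02 to 3.0005 CPM (median 1.93) in B6. Jchain measured 3.05, 4.39, 2.20, 0.527 and 0.586 CPM against 0 to 1.16 CPM in B6. For both genes mice 1 to 3 were above every B6 mouse, while mice 4 and 5 lay within the B6 range. Mouse 4 nonetheless had 11 of the 12 called interferon genes above the B6 mean, so the 2 sets of genes did not go together in every mouse. Without mouse 2 of the double CSS the FDR was 0.147 for Igkc, 0.36 for Igha and 0.0342 for Jchain, and without mouse 1 it was 0.0549, 0.0741 and 0.0037. These transcripts and Irgm2 were named after their values were seen, and the part of these cells in the interferon result was not tested.

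**Figure D5:**
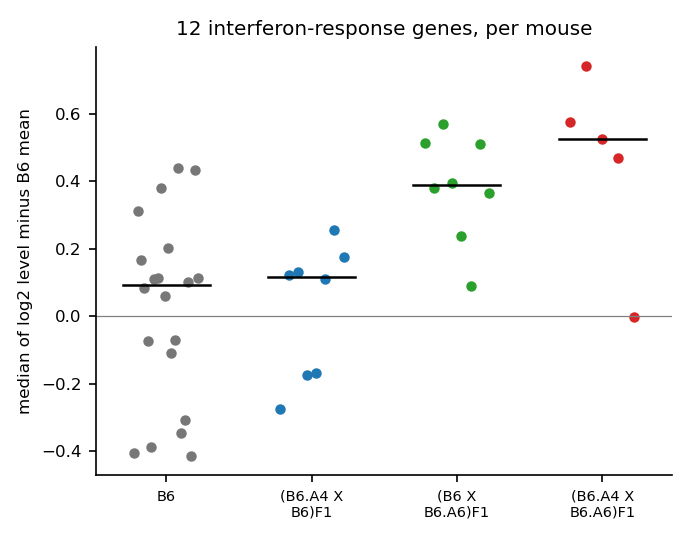
Each point is 1 mouse, the vertical axis is the median over the 12 called interferon genes of the log2(CPM + 0.5) level minus the B6 mean, and the bar is the median of the group. The genes were chosen for being higher in the double CSS, where mice 1 to 4 lay between 0.47 and 0.74 and mouse 5 at -0.003. The group median was 0.526 in the double CSS and 0.388 (range 0.089 to 0.57) in (B6 X B6.A6)F1, so the rise was not particular to the double CSS. It was 0.115 in (B6.A4 X B6)F1 and 0.092 in B6.

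Promoter sequence was read for the interferon genes, because their shared factors bind a known element, the interferon-stimulated response element. The core GAAANNGAAA, or TTTCNNTTTC on the other strand with overlaps counted, was searched in the 250 bases before the start of each gene in the RefSeq promoter table (GRCm38.p6). Of the called genes 9 had a promoter in the table and 3 held the core. Of 15 other measured genes of the list 10 held it, and of all 27025 genes 936 (3.46%) did. The windows of the 3 called genes follow, with the core in capitals. They lie at chr11:48871421-48871510 (minus strand) for Irgm1, chr8:71537553-71537642 (minus strand) for Bst2 and chr11:58199466-58199555 (plus strand) for Igtp.
Irgm1: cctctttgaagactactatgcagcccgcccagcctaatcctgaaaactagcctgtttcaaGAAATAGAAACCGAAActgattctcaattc
Bst2: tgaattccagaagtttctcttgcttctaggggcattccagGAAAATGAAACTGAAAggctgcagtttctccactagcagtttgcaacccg
Igtp: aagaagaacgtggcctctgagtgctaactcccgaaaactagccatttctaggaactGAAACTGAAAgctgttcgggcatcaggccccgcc
A match of these letters is a description of the window and does not show binding.

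Counts of the other lists are to be read against the shares over all genes, 2.78% called higher and 2.04% called lower. The list of chromosome 4 liver gene families had 8 of 39 genes higher (Cyp4a32 and 7 Mup genes) and 1 lower (Eno1), and that of chromosome 6 families had 3 of 36 higher (Clec4f, Apobec1 and Pon3) and 2 lower (Mug2 and Asns). Of all genes on chromosomes 4 and 6, 12.4% were called in either direction. Replication-dependent histones had 4 of 18 genes called higher against B6 (Hist4h4, Hist1h1c, Hist1h1d and Hist1h1e) and 0 lower. Conjugating enzymes had 4 of 35 higher, with Gstp1, a glutathione transferase, at 286.9, 402.5, 284.95, 202.6 and 267.9 CPM against 103.1 to 379.7 CPM (median 161) in B6. All 5 mice were above the B6 median, and the ranges overlapped (0.73 ± 0.20, FDR = 0.0186). The list of growth hormone and sex-biased genes had 4 of 29 higher (Mup1, Mup17, Ghr and Igfals) and 0 lower. Ribosomal protein genes had 3 of 37 lower, Rpl28 and Rpl32 among them. Over the 29 pathway lists, 59 different genes, or 8.35% of those measured, were called against B6, beside 4.82% of all genes. These lists include the families of chromosomes 4 and 6, where more genes were called. They were also chosen with earlier results of these data known, so nothing is read from the higher share. In the interaction 3 list genes (Agxt, Zbtb20 and Pon3), or 0.424%, were called, a share near the 0.542% of all genes.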

How the data were processed

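RNA from caudate lobes of male livers was sequenced for 24 strains. Alignment by the authors used TopHat2 with mm10 and an A/J genome, and they counted reads with HTSeq on GENCODE genes. The deposited values are raw counts per gene, without normalization, for 13289 genes. Mice were grouped by strain label, with the sire named first. Gene positions came from GENCODE vM21 (13242 genes placed, the rest counted as trans).

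Counts were analysed with edgeR (version 4.0.16, R version 4.3.3) in 1 fit over all mice, with TMM library sizes, a mean for each strain and 5 surrogate variables from svaseq (sva version 3.50.0). Each contrast was tested with edgeR's quasi-likelihood test (legacy=TRUE), and p-values were adjusted by Benjamini-Hochberg for cis and trans genes separately at FDR < 0.05. No 2 libraries of the double CSS agreed within sampling noise. On simulated data for the interaction over 13289 genes the fit recovered 96 of 100 genes with a log2 change of 1 and 64 of 100 with 0.5, and 11 other genes were called. The simulated counts were drawn independently around B6 means, without single-chromosome effects or hidden factors. Only genes with a log2 CPM of at least 2 were changed. The simulation therefore cannot show how the fit handles hidden structure between the real libraries.

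The strains, gene lists and tests were chosen with earlier results of these data known. Named genes were, for the interaction, the 12 with the smallest p in each direction and the 12 on chromosomes 4 and 6; against B6, the 6 highest and 6 lowest differences among genes whose mean log2 CPM reached 2; the 4 cis genes with the smallest p for each chromosome; and list genes called in the interaction or, up to 3 a list, against B6. The remaining interferon genes, the immunoglobulin genes and the further list genes were named after their values were seen, and their alternatives were added then. Alternatives were the number (0 or 10) and source of surrogate variables, DESeq2's size factors or Wald test (version 1.42.0), 2 filters on low counts, legacy=FALSE, a fit of the 41 mice alone, other adjustments, and leaving out each double CSS mouse. Sequencing runs are not given in the sources used here and were not modelled. Some genes of the lists are counted but not reported here by name.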

Additional observations from a re-analysis of the deposited data

Results flagged for a closer look

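The effect of 1 chromosome differed with the presence of the other, by the test of the interaction, for each gene named above with an ieQTL, although 17 of these 35 genes lost the call in at least 1 analysis without 1 double CSS mouse. The log2 interaction was -0.66 for A1cf, -0.37 for Arfgef1, -0.55 for Cnot6l, -1.54 for Gm26814, -0.51 for Gm26905, -0.82 for Gm44250, -0.37 for Ino80d, -0.43 for Itgav, -0.39 for Itpr2, -0.44 for Kdm7a, -0.61 for Lmbrd2, -0.37 for Nfib, -0.35 for Pon3, -0.53 for Stk38l, -0.40 for Tmem72, -0.46 for Tut4, -0.49 for Usp34, -0.64 for Zbtb20 and -0.48 for Zfp871. It was 0.61 for Agxt, 0.93 for Ccdc134, 0.50 for Daxx, 0.51 for Gcc1, 0.40 for Mgat1, 0.69 for Mmp14, 0.69 for Pex26, 0.43 for Pnn, 0.39 for Poldip3, 0.61 for Rab11fip4, 0.55 for Rbm10, 0.40 for Rgp1, 0.42 for Supt5, 0.64 for Supt7l, 0.79 for Ticam1 and 0.49 for Zbtb7b.

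Single mice stood far from the others of their strain in 10 of 150 groups examined. How many such groups chance alone gives was not tested. In the double CSS the distant mice were 1 with 16.9 CPM of Gcc1 and 1 with 169 CPM of Lpin1. In (B6.A4 X B6)F1 they were mice with 62.2 CPM of Gm26905, 83.5 CPM of Itpr2, 80.6 CPM of Phf11c, 41.8 CPM of Pik3c2g and 73.9 CPM of Tff3. In (B6 X B6.A6)F1 they were mice with 34.7 CPM of Mup12 and 140.97 CPM of Mup17, and the lowest with 6.78 CPM of Supt7l.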

How the results depend on the processing

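No paired analysis was possible because the labels give the mice no replicate number that is shared between strains. Shares below are of the genes tested in each analysis, since the filters tested fewer genes, and no named gene changed direction in any alternative run. The share with an ieQTL (0.542%) was 0 with 10 surrogate variables, 1.33% with surrogate variables from the counts as deposited, 0.88% with DESeq2's Wald test, 2.07% and 1.3% with the filter of 15 counts in 75% of mice and in every mouse, 0.12% with the 4 strains alone and no surrogate variables, 0.128% at FDR < 0.01, and 0.166% to 1.67% when 1 double CSS mouse was left out. The share differing from B6 (4.82%) was 2.11% without surrogate variables, 0.971% and 2.57% with the 4 strains alone and 0 or 5 surrogate variables, 1.71% at FDR < 0.01 and 2.81% to 4.22% without 1 mouse. The share called for chromosome 4 beside chromosome 6 (0.369%) was 0.233% with adjustment over all genes and 0.211% at FDR < 0.01. That for chromosome 6 beside chromosome 4 (0.625%) was 0.241% and 0.218% with 0 and 10 surrogate variables, 0.986% with DESeq2, 1.15% and 1.9% with the filters, 0.135% with the 4 strains alone and no surrogate variables, 0.226% at FDR < 0.01, and 0.226% to 1.2% without 1 mouse, the highest without mouse 5. Chromosome 4 cis effects carried over (28.4%) were 51.5% with 10 surrogate variables, 36.8% with the 4 strains and 5 surrogate variables and 39.7% at FDR < 0.01. Trans effects of chromosome 4 (5.51%) were 12.3%, 7.33% and 8.09% in these analyses, 7.33% with the filter in 75% of mice and 4.21% to 5.96% without 1 mouse. Chromosome 6 cis effects (32.3%) were 51.1% with the 4 strains and 5 surrogate variables, 43.9% at FDR < 0.01 and 23.1% to 32% without 1 mouse. Its trans effects, 98 of 976, were 16.9% with 10 surrogate variables, 12.8% with the filter in every mouse, 8.3% and 18.2% with the 4 strains and 0 or 5 surrogate variables, 13.2% at FDR < 0.01 and 7.56% to 10.7% without 1 mouse. The cause of these changes was not tested.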
